A study of Mus musculus with 8 samples.

Results

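Binding of the transcription factor GATA2 was examined around 6 genes that mark and direct mesenchymal precursor cells. They are the homeobox genes Prrx1 and Prrx2, the basic helix-loop-helix genes Twist1 and Twist2, and the platelet-derived growth factor receptor genes Pdgfra and Pdgfrb. They were chosen by name as 3 pairs of related genes, with earlier results of these data known. They make up 6 of the 21631 protein-coding genes of the RefSeq table used (GRCm38.p6, the mm10 assembly). GATA2 sites were mapped by chromatin immunoprecipitation and sequencing (ChIP-seq) in 2 mouse cell lines, the preadipocyte line 3T3-L1 and the multipotent embryonic fibroblast line C3H10T1/2, both from ATCC and at passages 4 to 6. For each line the labels name 2 libraries made with the GATA2 antibody sc-9008x and 2 input libraries made without antibody, with no treatment or genetic change named in any group. Per the labels' protocols, each library made with the antibody was prepared from DNA pooled over individual immunoprecipitations. What was analysed is 1 peak list per line, of 2445 peaks in 3T3-L1 and 1557 in C3H10T1/2, which gives positions alone. With a single list per line there was no replicate value and no test. Depth is unknown too, so a site missing from a list was not called there, which does not show that it was unbound.

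Mesenchymal precursors are the cells that give rise to fat, bone, cartilage and the connective tissue of the limb and face. Prrx1 and Prrx2 encode closely related homeodomain proteins of limb and facial mesenchyme, and Prrx1 is widely used as a marker of limb bud mesenchyme. Twist1 and Twist2 encode proteins that pair with E proteins and keep mesenchymal cells from maturing, Twist1 in the skull and limb and Twist2 (also called Dermo1) in the dermis. Pdgfra and Pdgfrb encode receptor tyrosine kinases for platelet-derived growth factors. Pdgfra marks fibroblasts and fat precursors, and Pdgfrb marks pericytes and other cells of the vessel wall. GATA2 is a zinc finger protein that binds DNA at the letters GATA and restrains the step from preadipocyte to fat cell. Expression of the 6 genes was not measured in the data used here.

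The only peaks within 100 kb of the 6 genes lay at Prrx1 and Prrx2. None of the 6 gene bodies held the centre of a peak in either line, where 2.79% of all protein-coding genes did in 3T3-L1 and 2.59% in C3H10T1/2. In the body or within 10 kb of it, Prrx2 alone had a peak of 3T3-L1 and Prrx1 alone a peak of C3H10T1/2, 1 of 6 genes in each line. The shares over all genes in that window were 3.96% and 3.64%. Within 100 kb, 2 of the 6 had a 3T3-L1 peak, Prrx1 and Prrx2, against 13.9% of all genes, and 1 of the 6 had a C3H10T1/2 peak, Prrx1, against 12.1%. Counts of 0 to 2 of 6 genes are too small to be set above or below these shares. The other 4 genes, Twist1, Twist2, Pdgfra and Pdgfrb, were without a peak at that distance. That was the state of most genes: 80.4% of protein-coding genes had no peak in any of these windows in either line.

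In 3T3-L1 the peak farthest out but still within 100 kb lay 65.7 kb from Prrx1 and the first one beyond that limit 118 kb from it. In C3H10T1/2 these distances were 65.7 kb and 103 kb, both again at Prrx1. The limit therefore passes close to a run of C3H10T1/2 peaks described below. Peaks beyond it are given out to 250 kb, a window chosen after the nearest peaks had been seen. It held 14 peaks of 3T3-L1, spread over all 6 genes, and 12 of C3H10T1/2, at Prrx1, Prrx2, Pdgfra and Pdgfrb. Over all protein-coding genes, 27.8% had a 3T3-L1 peak within 250 kb and 24.1% a C3H10T1/2 peak. Because that window was fitted to these 6 genes, nothing is read from the difference.

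**Figure D1:**
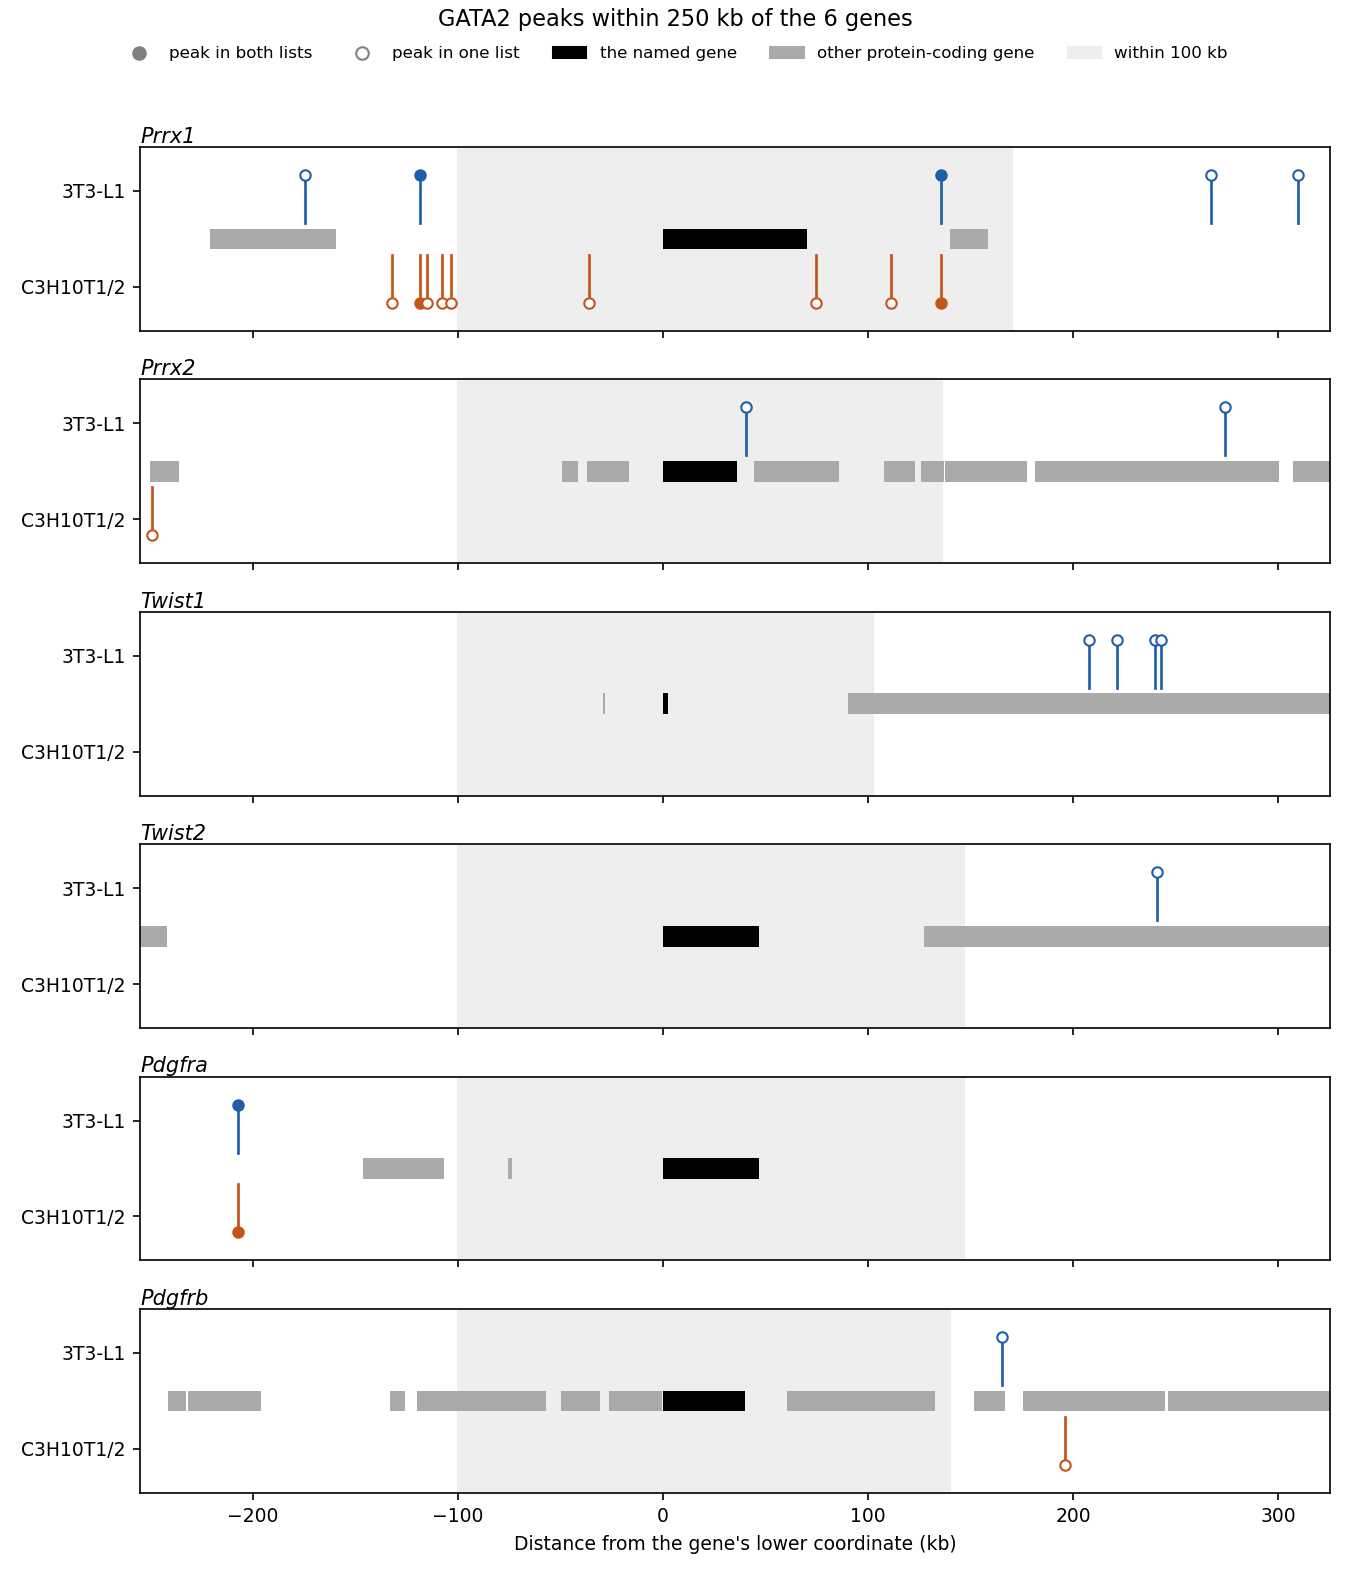
Peaks within 250 kb of each gene, by distance in kb from the gene's lower coordinate; blue stems pointing up are 3T3-L1 peaks, orange stems pointing down are C3H10T1/2 peaks, and filled heads mark sites that both lists hold (an overlap of 1 bp or more). Prrx1 has 5 peaks of 3T3-L1 and 9 of C3H10T1/2 on both sides of an empty gene body, and Twist1 has 4 peaks of 3T3-L1 within the long neighbouring gene to its right.

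Prrx1 had the most peaks of the 6 genes. It lies on the minus strand of chromosome 1 (163245119 to 163315145, 70.0 kb), in a gene-poor stretch 159 kb above Mroh9 and 69.8 kb below Gorab, which encodes a golgin of the Golgi apparatus. Within 100 kb it had 1 peak of 3T3-L1 and 4 of C3H10T1/2. At least 4 C3H10T1/2 peaks within 100 kb were found at 0.208% of all protein-coding genes, which is 45 genes, or 40 once the dense block of peaks at Sfi1 on chromosome 11 is left out. The cutoff of 4 and the line were set by the count of Prrx1 itself, so nothing is read from this share. The neighbour Mroh9 was among these genes, with 5 C3H10T1/2 peaks within 100 kb. No other protein-coding gene had exactly the counts of Prrx1 over the 3 windows and the 2 lines, a strict match that does not by itself set Prrx1 apart.

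The peak nearest to Prrx1 was called in C3H10T1/2 alone. It ran from 163319632 to 163319874 (243 bp, wider than 76.1% of the list) and its centre lay 4.61 kb beyond the higher coordinate of the gene, which is 6.10 kb upstream of the transcription start that RefSeq gives (163313650). A peak as near as this or nearer was found at 3.27% of protein-coding genes in that line. Farther upstream lay a second C3H10T1/2 peak, from 163356249 to 163356493 (245 bp), 42.7 kb from the start. Its nearest gene was Gorab, at 28.5 kb. On the other side, 36.2 kb past the end of the gene, another C3H10T1/2 peak ran from 163208894 to 163209041 (148 bp). None of these 3 peaks overlapped a 3T3-L1 peak, and the nearest 3T3-L1 peak lay 61.1 kb, 24.4 kb and 82.3 kb from them. Most C3H10T1/2 peaks were unshared, with 34.7% of the whole list overlapping a 3T3-L1 peak.

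The site upstream of Prrx1 that both lists held lay between Prrx1 and Gorab, much nearer to Gorab. The 3T3-L1 peak ran from 163380703 to 163380919 (217 bp, wider than 80.2% of its list) and the C3H10T1/2 peak from 163380727 to 163380868 (142 bp, wider than 21.8% of its list). The C3H10T1/2 peak lay wholly inside the 3T3-L1 peak and covered 65.4% of it, and their centres were 13.5 bp apart. The site was 65.7 kb from Prrx1 and 4.09 kb (3T3-L1) and 4.11 kb (C3H10T1/2) from Gorab. The interval between these genes, 69.8 kb long, held 3 peaks of C3H10T1/2 and 1 of 3T3-L1.

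Below Prrx1, in the 159 kb without a protein-coding gene that separate it from Mroh9, the list of C3H10T1/2 was denser than that of 3T3-L1. The interval held 6 C3H10T1/2 peaks and 1 3T3-L1 peak. Of the 6, 5 formed a run over 29.4 kb (163112611 to 163142019), with gaps of 3.35 to 13.5 kb between neighbours and centres 103 to 132 kb from Prrx1. Of the 1360 runs into which the C3H10T1/2 list fell when peaks separated by at most 20 kb were joined, 3 held 5 peaks or more (0.221%) and 89.8% held a single peak. In 3T3-L1 it was 6 of 1787 runs (0.336%). The run was picked as the largest in its interval and the cutoff of 5 is its own size, so nothing is read from these shares. The run lay nearer to Mroh9 (27.1 to 56.2 kb) than to Prrx1.

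The run had 1 site in common with 3T3-L1. There the C3H10T1/2 peak ran from 163126402 to 163126796 (395 bp, wider than 96.4% of its list) and the 3T3-L1 peak from 163126534 to 163126852 (319 bp, wider than 94.8%). They overlapped by 263 bp, or 66.6% of the first and 82.4% of the second, and this was the widest C3H10T1/2 peak within 250 kb of any of the 6 genes. The other peaks of the run measured 298, 124, 124 and 292 bp. The width of 124 bp was the most frequent of the C3H10T1/2 list, found in 6.29% of its peaks, and 4 of the 12 C3H10T1/2 peaks within 250 kb of the 6 genes had it. Of C3H10T1/2 peaks with that width 19.4% overlapped a 3T3-L1 peak, against 34.7% of the whole list.

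Another 3 peaks of 3T3-L1 lay within 250 kb of Prrx1, and none overlapped a C3H10T1/2 peak. A peak of 93 bp lay inside Mroh9, 174 kb from Prrx1. Beyond Gorab, 197 kb from Prrx1, lay the widest 3T3-L1 peak near any of the 6 genes, from 163511903 to 163512329 (427 bp, wider than 97.8% of the list), and 240 kb away lay one of 124 bp. So of 5 peaks of 3T3-L1 and 9 of C3H10T1/2 at Prrx1, 2 sites were in both lists.

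**Figure D2:**
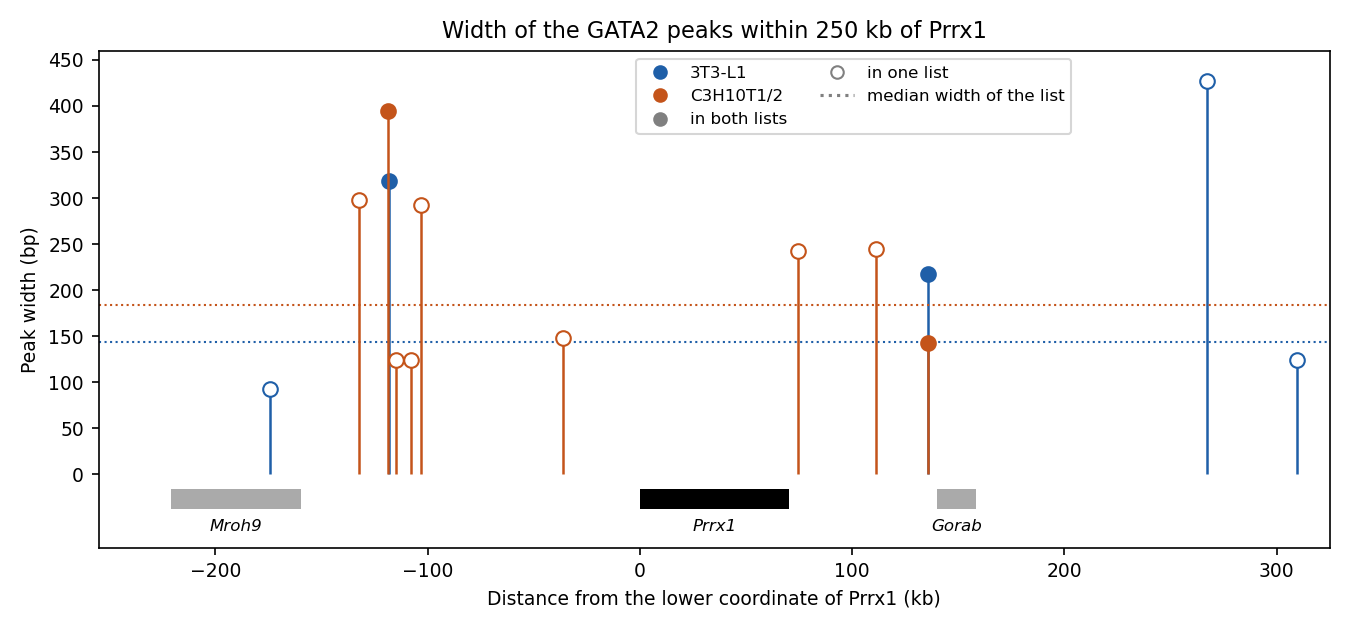
Width in bp of each peak within 250 kb of Prrx1 against its distance in kb from the lower coordinate of the gene; blue is 3T3-L1, orange is C3H10T1/2, filled points are in both lists, and dotted lines give the median width of each list (144 and 184 bp). The 2 shared sites lie on either side of the gene, and the run of 5 C3H10T1/2 peaks stands to the left of it at 103 to 132 kb.

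A search of the promoters showed no peak in them. RefSeq windows of 300 bases, from 250 bases before to 50 after a start, were at hand for 5 of the 6 genes (Prrx1, Prrx2, Twist1, Twist2 and Pdgfra), and none of the 5 overlapped a peak of either list. They were searched on both strands for AGATAA and TGATAA, and for the same letters with G at the end (AGATAG, and with T in front TGATAG), the forms GATA factors are known to prefer. Only the Prrx1 window held a match, where 29.8% of the 32851 windows in the table do. It is shown because Prrx1 had the nearest C3H10T1/2 peak of the 6 genes, with the 4 letters GATA in capitals (chr1:163313601-163313900, minus strand, GRCm38.p6). The second of the 2 capital stretches is part of TGATAA, which begins at base 75.

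Prrx1 promoter: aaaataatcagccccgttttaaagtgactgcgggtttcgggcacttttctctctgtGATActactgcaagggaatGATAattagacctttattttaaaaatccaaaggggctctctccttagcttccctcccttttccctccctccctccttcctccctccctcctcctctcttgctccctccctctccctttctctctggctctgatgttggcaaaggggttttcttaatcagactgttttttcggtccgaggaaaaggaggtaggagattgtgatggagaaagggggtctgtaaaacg

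The nearest C3H10T1/2 peak began upstream of this window and did not reach it. A match is a description of letters, and whether GATA2 binds there in these cells was not tested. Among windows that did overlap a peak, 25 of 41 (61.0%) held a match in 3T3-L1 and 25 of 48 (52.1%) in C3H10T1/2.

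Prrx2 had a single peak within 100 kb, called in 3T3-L1 alone. Prrx2 lies on the plus strand of chromosome 2 (30845064 to 30881251, 36.2 kb), in a gene-dense stretch with 7 other protein-coding genes within 100 kb. The peak ran from 30885659 to 30885729, 4.44 kb beyond the end of the gene and 40.3 kb downstream of its start (30845367). A 3T3-L1 peak as near as this or nearer was found at 3.38% of protein-coding genes. With 71 bp it was the narrowest peak within 250 kb of any of the 6 genes, and 2.45% of the list was narrower. It lay nearer to Ptges, which encodes an enzyme that makes prostaglandin E2, at 3.78 kb from that gene's lower coordinate (30889471). The nearest C3H10T1/2 peak was 290 kb from it.

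Other peaks around Prrx2 were distant. A second 3T3-L1 peak of 81 bp, the most frequent width of that list, lay inside Fnbp1, 238 kb above Prrx2. The nearest C3H10T1/2 peak lay inside Cstad, 249 kb below Prrx2, from 30595970 to 30596121 (152 bp). A site of both lists lay next to it, just beyond 250 kb, at 30594865 to 30595084 in 3T3-L1 (220 bp) and 30594731 to 30595169 in C3H10T1/2 (439 bp). Above Prrx2 the next C3H10T1/2 peak was 1740 kb away.

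The Twist genes had peaks of 3T3-L1 alone within 250 kb, and in both cases these lay inside a neighbouring histone deacetylase gene. Twist1 is a short gene on the plus strand of chromosome 12 (33957671 to 33959831, 2.16 kb). Its neighbours are Ferd3l, another basic helix-loop-helix gene 28.4 kb below it, and Hdac9, 87.7 kb above it (34047580 to 34917095), which encodes a class IIa histone deacetylase. Hdac9 held 4 peaks of 3T3-L1 and 0 of C3H10T1/2 in its 870 kb. The peaks were 82 bp wide (34165372 to 34165453), 199 bp (34178990 to 34179188), 152 bp (34197176 to 34197327) and 294 bp (34200222 to 34200515). Their centres lay 206, 219, 237 and 241 kb from Twist1, which is 118 to 153 kb inside the Twist1 side of Hdac9. Of the 4 peaks, 3 were wider than the list's median of 144 bp, and the widest was wider than 93.3% of the list. In mouse, enhancers that act on Twist1 in limb and facial mesenchyme are known to lie inside Hdac9. Whether any of these peaks falls on one of them was not tested.

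C3H10T1/2 had no peak anywhere near Twist1. The nearest ones lay 1190 kb below it and 1287 kb above it, which leaves 2.48 Mb without a peak, and 64.2% of protein-coding genes had a C3H10T1/2 peak at least as near. Below Twist1 the 3T3-L1 list was also empty for 2772 kb, so its peaks stood on the Hdac9 side alone.

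Twist2 had 1 peak within 250 kb, in 3T3-L1 alone. The gene lies on the plus strand of chromosome 1 (91801461 to 91848034, 46.6 kb), 80.7 kb below Hdac4, which encodes another class IIa histone deacetylase. Hdac4 held 1 peak of 3T3-L1, from 92042074 to 92042185 (112 bp, wider than 29.4% of the list), 194 kb from Twist2, and none of C3H10T1/2. On the other side the nearest peak was in both lists. It lay 355 kb below Twist2 inside the circadian clock gene Per2, at 91446190 to 91446342 in C3H10T1/2 and 91446223 to 91446324 in 3T3-L1, with centres 7.5 bp apart. Above Twist2 the next C3H10T1/2 peak was 2813 kb away.

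The receptor gene Pdgfra had 1 site within 250 kb, and both lists held it. Pdgfra lies on the plus strand of chromosome 5 (75151322 to 75198206, 46.9 kb). The 3T3-L1 peak ran from 74944269 to 74944382 (114 bp, wider than 30.6% of its list) and the C3H10T1/2 peak from 74944251 to 74944374 (124 bp, wider than 3.28% of its list). They overlapped by 106 bp, 93.0% of the first and 85.5% of the second, with centres 13 bp apart. The site was 207 kb below Pdgfra and 60.7 kb below the nearest protein-coding gene, Chic2, which stands between it and Pdgfra together with the homeobox gene Gsx2. Both peaks were narrower than the median of their list (144 bp in 3T3-L1 and 184 bp in C3H10T1/2), and they were called at the same place.

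This site lies at the start of a long noncoding RNA gene, Gm52779 (74941127 to 74944287, minus strand). It was the only peak within 250 kb of the 6 genes that overlapped a promoter window, so it is the one whose letters can be shown. The window is chr5:74944238-74944537 on the minus strand (GRCm38.p6). The 3T3-L1 peak covers bases 156 to 269 of it and the C3H10T1/2 peak bases 164 to 287. The capitals mark the single occurrence of GATA on either strand, here read as TATC from base 209, inside both peaks.

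Gm52779 promoter: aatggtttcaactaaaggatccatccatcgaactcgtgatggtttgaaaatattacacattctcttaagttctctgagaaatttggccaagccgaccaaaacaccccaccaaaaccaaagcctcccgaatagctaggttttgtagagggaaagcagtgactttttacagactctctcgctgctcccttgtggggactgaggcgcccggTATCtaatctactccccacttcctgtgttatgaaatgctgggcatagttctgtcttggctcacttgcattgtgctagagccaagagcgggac

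None of the 4 longer forms was found in this window. The 4 letters GATA or TATC alone occur in 57.9% of all windows of this length, in 90.2% of those with a 3T3-L1 peak and in 83.3% of those with a C3H10T1/2 peak. Both called peaks lie wholly inside the window, so neither peak holds a longer form. This describes letters alone, and whether GATA2 binds at the single GATA was not tested.

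Above Pdgfra the lists were empty over a long stretch. The next peak lay 1943 kb away in 3T3-L1 and 5909 kb away in C3H10T1/2. The related receptor genes Kit, which is a known target of GATA2 in blood precursors, and Kdr, which encodes the main receptor for vascular endothelial growth factor, lie in that stretch, Kit 377 kb above Pdgfra. Neither had a peak in its body, and the peaks nearest to Kit were 631 kb away in both lines, at the site below Pdgfra.

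Pdgfrb, on chromosome 18 (61045127 to 61085067, 39.9 kb), had its nearest peaks on the side of Csf1r, the receptor gene for colony-stimulating factor 1, which begins 20.5 kb above it. The 3T3-L1 peak ran from 61210388 to 61210513 (126 bp), 125 kb from Pdgfrb, inside the sulfate transporter gene Slc26a2. The C3H10T1/2 peak ran from 61241242 to 61241365 (124 bp), 156 kb from Pdgfrb, inside the phosphodiesterase gene Pde6a. They were 30.9 kb apart and neither overlapped a peak of the other list. Both were narrower than the median of their list, the first being wider than 39.5% of it and the second than 3.28%. Below Pdgfrb the next peaks were 662 kb away in 3T3-L1 and 3063 kb away in C3H10T1/2.

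In the order of their nearest peak, the 3T3-L1 list ran from Prrx2 (4.44 kb) and Prrx1 (65.7 kb) over Pdgfrb (125 kb) and Twist2 (194 kb) to Twist1 (206 kb) and Pdgfra (207 kb). In C3H10T1/2 it ran from Prrx1 (4.61 kb) over Pdgfrb (156 kb), Pdgfra (207 kb), Prrx2 (249 kb) and Twist2 (355 kb) to Twist1 (1190 kb). The median of the 6 genes was 160 kb in 3T3-L1 and 228 kb in C3H10T1/2, beside 588 kb and 743 kb over all protein-coding genes. The 6 genes were chosen with earlier results of these data known, so nothing is read from this difference or from the shares that follow. Between 3.38% and 24.0% of all genes had a 3T3-L1 peak at least as near as one of the 6 had, and between 3.27% and 64.2% had a C3H10T1/2 peak that near, with Twist2 at 31.1% and Twist1 at 64.2%. Distances of single sites carry no error here, so neighbours in these orders, such as Twist1 and Pdgfra in 3T3-L1, cannot be told apart.

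**Figure D3:**
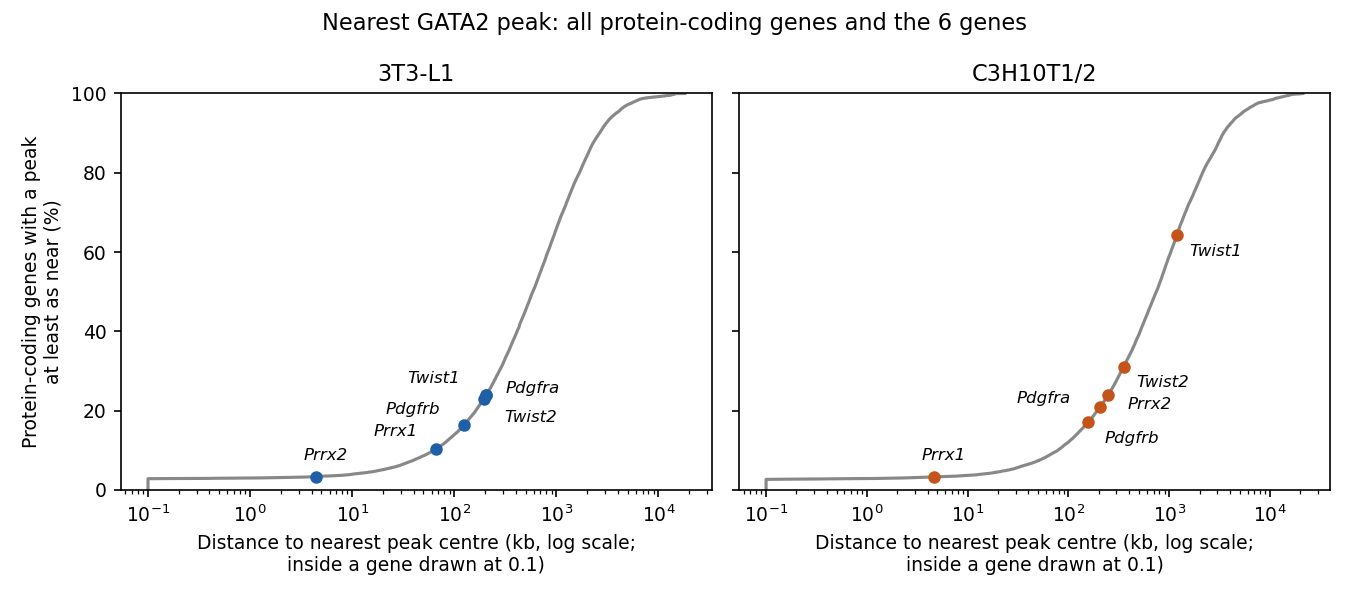
Percentage of protein-coding genes whose nearest peak centre is at least as near as the distance on the x axis (kb, log scale), in 3T3-L1 (left) and C3H10T1/2 (right), with the 6 genes as points on the curve. Prrx2 lies farthest left in 3T3-L1 at 4.44 kb and Prrx1 in C3H10T1/2 at 4.61 kb, and Twist1 lies farthest right in C3H10T1/2 at 1190 kb.

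Few of the peaks around the 6 genes were shared, as in the whole lists. Of the 14 peaks of 3T3-L1 within 250 kb, 3 overlapped a C3H10T1/2 peak, and of the 12 of C3H10T1/2, 3 overlapped a 3T3-L1 peak, at the same 3 sites, 2 at Prrx1, which also had 5 of the 14 and 9 of the 12 peaks, and 1 at Pdgfra. Over the whole lists 22.4% of 3T3-L1 peaks and 34.7% of C3H10T1/2 peaks were shared. A further site of both lists lay just beyond the limit, 250.1 kb from Prrx2, with a C3H10T1/2 peak of 439 bp. It is left out of these counts and of the widths below, which therefore turn on where the limit was set. The widths of the 14 ran from 71 to 427 bp with a median of 125 bp, beside 144 bp for the list, and those of the 12 from 124 to 395 bp with a median of 150 bp, beside 184 bp. None of these peaks belonged to a dense block, defined as a run of at least 8 peaks with gaps of at most 20 kb.

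The genes around these 6 in their pathways were read from lists chosen by function, with earlier results of these data known. Their counts are to be read beside the shares over all protein-coding genes, 13.9% in 3T3-L1 and 12.1% in C3H10T1/2 within 100 kb and 3.96% and 3.64% within 10 kb. Of the 4 ligand genes of the PDGF receptors, Pdgfd had a C3H10T1/2 peak in its body (chromosome 9, 6270042 to 6270202), while the 3T3-L1 peak nearest to the gene lay 7398 kb from it, and Pdgfc had a 3T3-L1 peak 19.5 kb away. Neither Pdgfa nor Pdgfb had one within 100 kb. Of 23 genes of signal transducers and related receptors, 3 had a peak within 100 kb in each line. Crk, an adaptor of receptor signalling, held a shared peak in its body (chromosome 11, 75687681 to 75687819 in 3T3-L1). Nrp1, a co-receptor, held 2 peaks of C3H10T1/2 alone. Csf1r was counted in 3T3-L1 through the Slc26a2 peak already described at Pdgfrb. The list's median distance to a peak was 600 kb in 3T3-L1 and 656 kb in C3H10T1/2, close to the 588 and 743 kb of all genes.

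Among 14 basic helix-loop-helix partners and relatives of Twist and their Id antagonists, 5 had a peak within 100 kb in each line, and 2 in 3T3-L1 and 4 in C3H10T1/2 had one in the body or within 10 kb. Over all genes the shares were 13.9% and 12.1% within 100 kb and 3.96% and 3.64% within 10 kb, and counts this small were not tested against them. Tcf3 and Tcf4 encode E proteins, the partners of Twist proteins. Tcf3 had a site of both lists at its higher boundary on chromosome 10, 358 bp wide in 3T3-L1 and 490 bp in C3H10T1/2. Tcf4 had 1 peak of each line in its body, at 69535395 to 69535644 and 69381955 to 69382113 on chromosome 18, and these did not overlap. Id1 and Id3, which encode proteins that sequester E proteins, had C3H10T1/2 peaks 4.2 kb and 3.45 kb away. Ferd3l, the neighbour of Twist1, had none within 100 kb. The median distance to a peak over this list was 292 kb in 3T3-L1 and 358 kb in C3H10T1/2, beside 588 and 743 kb over all genes.

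Of 23 homeobox relatives of Prrx and other factors of limb and facial mesenchyme, 5 had a 3T3-L1 peak within 100 kb, against 13.9% of all genes, and 2 a C3H10T1/2 peak, against 12.1%. The difference between 5 and 2 genes was not tested. Alx4, a relative of Prrx1 that acts in the limb and skull, held a 3T3-L1 peak in its body (chromosome 2, 93666552 to 93666671, 120 bp), and its nearest C3H10T1/2 peak was 694 kb away. The 2 genes with a C3H10T1/2 peak, Foxc2 and Hoxa11, had it at sites that 3T3-L1 shared, 45.4 kb and 73.8 kb away. The medians were 489 kb and 481 kb, beside 588 and 743 kb over all genes. Of 12 genes of the epithelial to mesenchymal transition, which Twist1 promotes, 4 had a peak within 100 kb in 3T3-L1 and 5 in C3H10T1/2, against 13.9% and 12.1% of all genes. The medians were 278 kb and 281 kb. The transcription factor genes Tcf4 and Foxc2 had a peak at that distance in both lines, and Snai1, Snai2, Zeb1 and Zeb2 in neither. Cdh1, the E-cadherin gene of epithelial cells, held 1 peak of 3T3-L1 (chromosome 8, 106623252 to 106623365), which was shared, and 2 of C3H10T1/2 in its body. Cdh11, which encodes a cadherin of mesenchymal cells, held 1 peak of C3H10T1/2 in its body, and its nearest 3T3-L1 peak lay 35.3 kb away. Tcf4 and Foxc2 each stand in 2 of these lists.

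Of 26 surface and stromal markers of mesenchymal precursors, 6 had a 3T3-L1 peak within 100 kb, against 13.9% of all genes, and 3 a C3H10T1/2 peak, against 12.1%. In the body or within 10 kb the count was 0 in each line, where 3.96% and 3.64% of all genes had a peak, so that few of 26 genes would have one at those shares. Eng and Thy1 had their nearest ones at shared sites 11.6 kb and 97.8 kb away. Ly6a, which encodes Sca-1, had 2 peaks of each line within 100 kb. The nearest were unshared and lay 87.8 kb away in 3T3-L1 and 87.6 kb in C3H10T1/2. That 3T3-L1 peak was 50 bp wide, the smallest width of its list. Nt5e, Cd44 and Itgav had a 3T3-L1 peak alone, 37.9, 16.8 and 46.1 kb away. The medians were 252 kb in 3T3-L1 and 376 kb in C3H10T1/2, beside 588 and 743 kb over all genes. The lists are small and share neighbours, and no test was made on them.

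**Figure D4:**
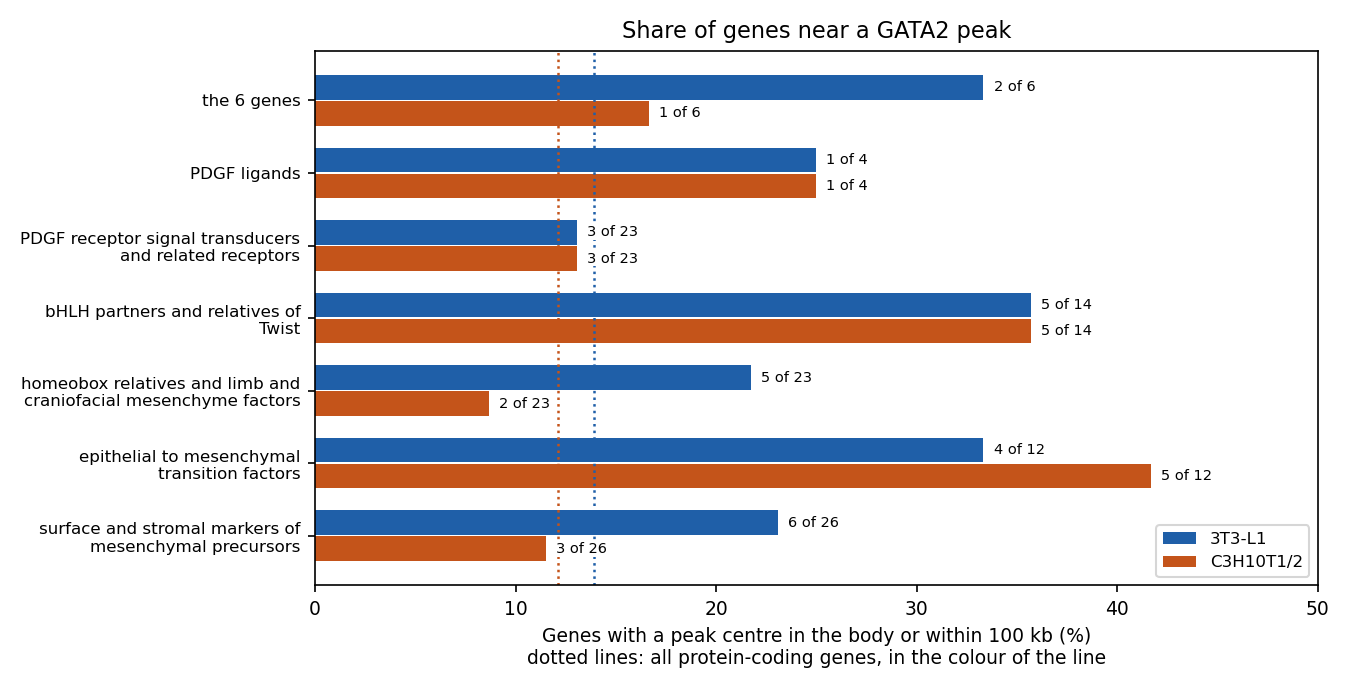
Percentage of genes with a peak centre in the body or within 100 kb, for the 6 genes and for 6 lists of related genes, with the counts beside the bars; blue is 3T3-L1, orange is C3H10T1/2, and dotted lines give all protein-coding genes (13.9% and 12.1%). The bars for the 6 genes stand for 2 genes and 1 gene, and those for the signal transducers for 3 of 23 in each line.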

How the data were processed

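The deposited files are 2 lists of peaks, 1 per line, with chromosome, start and end in bp and no score; the authors' start coordinates count from 0 and are printed here counted from 1. Per the submitters' processing notes, reads were handled on mm10 with MACS2, bedtools, SAMtools, Bowtie2 and CASAVA 1.8; the roles and settings of these tools, how libraries and input were combined and what made a peak are not given in the sources used here, though each can change how many peaks a list holds and how wide they are. The genes and lists were chosen with earlier results of these data known.

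Genes came from RefSeq GRCm38.p6 (21631 protein-coding genes on chromosomes 1 to 19 and X), which gives the lower and higher coordinate of each gene without exons, so exonic and intronic positions are not given. Strands and starts came from the RefSeq promoter table. A peak was counted for a gene when its centre lay in the gene body or within 10 kb or 100 kb of it, and called shared when 1 bp or more of it lay in a peak of the second list. All 6 genes are named, with every peak within 100 kb and the nearest of each line; genes of the lists are named by a peak in the body or within 10 kb, and further ones were picked after their values were seen. No statistical test was run. Counting was checked on peaks planted at known places. Python 3.11.15, pandas 2.3.3, numpy 2.4.6 and matplotlib 3.10.9 were used.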

Additional observations from a re-analysis of the deposited data

How the results depend on the processing

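The number of the 6 genes with a peak inside 100 kb depended on the window and on narrow peaks. In 3T3-L1 the count of 2 became 1 with peaks of at least the median width and in a window of 50 kb, 4 in a window of 200 kb, 6 in a window of 250 kb and 0 when each peak was given to its nearest protein-coding gene alone. In C3H10T1/2 the count of 1 became 2 at 200 kb and 4 at 250 kb. Within 10 kb the 3T3-L1 count of 1 became 0 with the wider peaks, since the Prrx2 peak of 71 bp drops out, and the peaks within 100 kb of Prrx2 in 3T3-L1 then numbered 0 and those of Prrx1 in C3H10T1/2 numbered 2. The shared peaks near the 6 genes rose from 1 to 3 in each line at 250 kb. Window, width and nearest-gene settings were planned except 250 kb, which was chosen after seeing the data. The other 54 of 66 values stayed within 1.5 times, among them all values with dense blocks left out, with any base of a peak counted in place of its centre, and with sharing defined by 50% overlap or by centres within 1 kb. No paired analysis was possible because each line has a single list of peaks. For the same reason no replicate could be left out. The unknown depth limits what a missing peak can mean.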
